A study of Mus musculus with 73 samples.

Results

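The genes of cholesterol synthesis and the related targets of the sterol regulatory element binding proteins (SREBPs) were followed in mouse jejunal epithelium. The members were 28 genes chosen by name, in 4 groups by role, of 17399 genes in the table of bulk epithelium and 21058 in the table of single cells. The study asked how *Lgr5*+ stromal cells at the villus tip shape the enterocytes above them. Bulk epithelium came from 4 Lgr5(GFP-ires-DTR/+) males given diphtheria toxin (DT) and 4 Lgr5(GFP-ires-DTR/+) males given saline vehicle, called control here, all 4 months old by the labels and collected 48 h after injection. The toxin receptor sits in the *Lgr5* gene and both groups carried it, so DT reached every *Lgr5*+ cell, crypt stem cells as well as villus tip telocytes. Single jejunal cells came from 8 untreated C57BL/6 males of 3 months, sorted by surface markers into 384-well plates. The sort aimed mainly at stromal cells with PDGFRa on their surface. The study proposes that epithelial cells came along with attached fragments of telocyte extensions, so they are not an even sample of the epithelium. Among 2347 single cells within the depth limits, 1215 had at least 1 unique molecular identifier (UMI, a tag that marks 1 captured RNA molecule) of the epithelial gene *Epcam*, and these were split by their summed UMIs of *Ada*, *Nt5e* and *Slc28a2*, the purine metabolism genes of the villus tip. The split left 242 cells with 3 or more such UMIs, called tip-gene-high, 881 cells with 0, called tip-gene-0, and 92 cells in between.

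Cholesterol is built from acetyl-CoA through mevalonate and squalene. SREBP transcription factors are made as membrane proteins of the endoplasmic reticulum, where INSIG proteins hold them back while sterols are plentiful, and SCAP escorts them to the Golgi for cleavage when sterols fall. The released fragment binds sterol regulatory elements near the start sites of the pathway's genes, often beside boxes bound by NF-Y and Sp1. The small intestine both makes cholesterol and absorbs it from the lumen.

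The binding site was looked for in the promoters of the members, since it is the sequence by which SREBPs reach them. RefSeq promoter windows of 300 bases on GRCm38.p6, from 250 bases before to 50 after a gene's start, were held for 23 of the 28 members, with 29 windows in all. *Fdps*, *Fdft1*, *Sqle*, *Stard4* and *Scd2* had no window and were not searched. Only exact matches were counted, so a window without one may still hold a variant of the site. The core TCACNCCAC, read on both strands, lay in a window of 1 member gene, *Hmgcs1*, against 1.44% of 27025 genes. It stood 137 to 129 bases before the RefSeq start of *Hmgcs1*, and is given in capitals with 10 bases on each side, from chr13:119690204-119690232 on the plus strand of GRCm38.

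*Hmgcs1*: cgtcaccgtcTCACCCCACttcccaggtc

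The box CCAAT, on either strand, was held by 19 of the 23 member genes and by 41.1% of all genes. The box GGGCGG, on either strand, was likewise held by 19 of 23, and by 38.2% of all genes. These are matches of letters in a fixed window and not measured binding.

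The bulk libraries held 748458 to 4210158 UMIs. Batch a, in the study's supplementary list, holds replicates 1 and 2 of both groups with at most 2068297 UMIs, and batch b holds replicates 3 and 4 with at least 2270453. Bulk levels are given as CPM, UMI counts divided by the TMM-scaled library size and set to a common total. All 8 epithelial marker genes were measured, and their summed level overlapped between the groups. Other cell types did move. Summed villus tip marker levels were 2209 to 3004 CPM in control and 1174 to 1542 in DT, with 2 of 7 genes lower. Paneth markers summed to 5507 to 16090 CPM in control and 886 to 2547 in DT, with 3 of 7 lower, and 3 of 3 tested tuft markers were lower. All 10 proliferation and 5 of 6 stem cell markers had positive log2 fold changes, and goblet, immune and enteroendocrine markers were mostly negative, with 0 past the threshold in these lists. Their part in the members' values was not tested, and in such bulk samples fewer cells of a type and less RNA per cell cannot be told apart.

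After DT, no member of the sterol or fatty acid pathway passed an adjusted p of 0.05 in edgeR's quasi-likelihood test with Benjamini-Hochberg adjustment over 8986 genes. *Fdps* has no row in either table and *Idi1* lay under the low-count limit, which left 26 of 28 members tested. Of these, 0 were higher and 0 lower, where 0.0223% of all genes were called higher and 0.334% lower. An unadjusted p under 0.05 was also reached by 0 members, against 8.82% of all genes in the upward and 8.44% in the downward direction. DESeq2 called 0 members as well. The DT and control samples overlapped for all 26 tested members. Over all genes, every DT sample lay below every control in 1.87% and above in 1.21%. Log2 fold changes of DT over control ran from -0.63 to 0.50 with a median of 0.11, beside 0.00 for all genes, and 17 were positive and 9 negative. The 95% interval of 24 members stayed within a doubling or a halving in either direction (log2 -1 to 1), and that of *Scd2* and of *Acly* reached beyond it. On simulated data of this design, 49.5% of genes shifted by 1 on the log2 scale were called, and 95.5% of those shifted by 2.

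**Figure D1:**
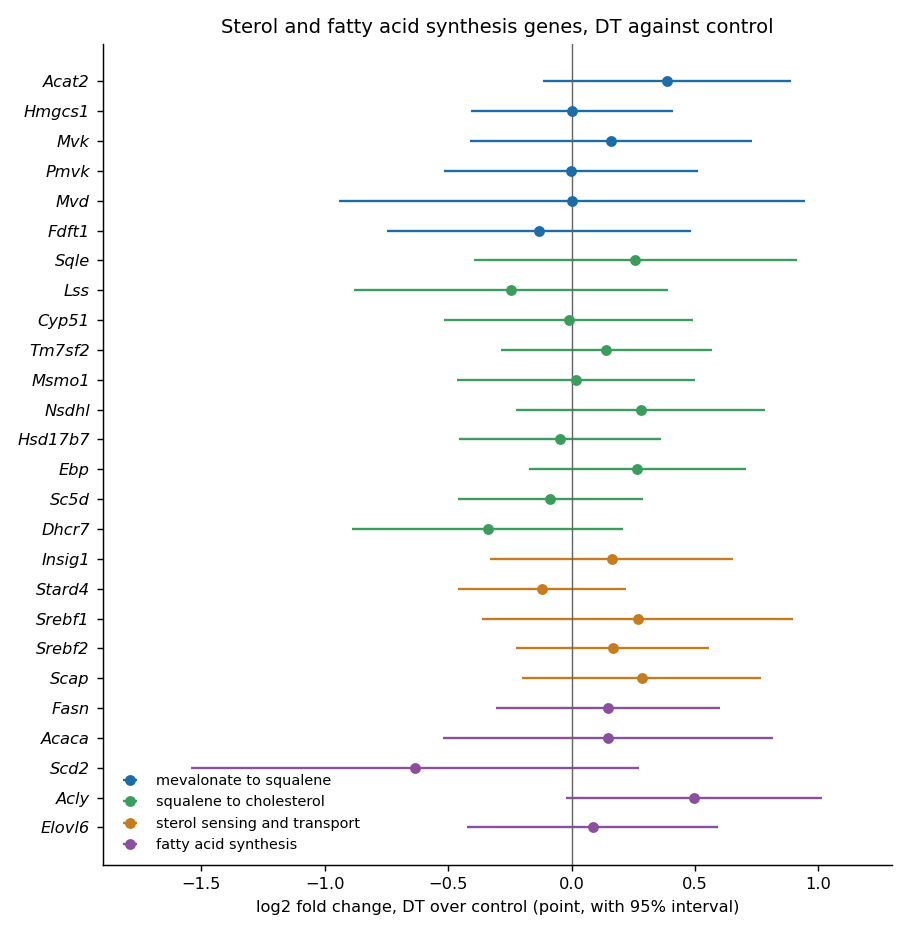
Log2 fold change of DT over control (horizontal axis) for the 26 members tested, coloured by role, as points with 95% intervals from the fit with batch as a term (4 samples per group). Every interval contains 0, and the points run from -0.63 for *Scd2* to 0.50 for *Acly*.

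In the first stage, from acetyl-CoA to squalene, 4 of 6 tested genes had positive and 2 negative log2 fold changes, the lowest -0.13 and the highest 0.39. *Acat2*, on chromosome 17 from 12942890 to 12960747, joins acetyl-CoA units to acetoacetyl-CoA. Its level in control 1 to 4 was 17.4, 7.43, 36.9 and 37.0 CPM, and in DT 1 to 4 it was 21.1, 25.1, 46.2 and 36.6 CPM. Replicates 1 and 2 of both groups were the low ones, and the groups overlapped. The log2 fold change of *Acat2* was 0.39 (SE 0.23, edgeR adjusted p = 0.392). *Hmgcs1*, the HMG-CoA synthase whose promoter site is printed above, averaged 92.3 ± 23.2 CPM in control and 92.3 ± 15.8 in DT (SD, n = 4), with a fold of 1.00 and a 95% interval of 0.755 to 1.33. The kinases *Mvk* and *Pmvk* and the decarboxylase *Mvd* had folds of 1.12, 0.997 and 1.00. *Fdft1*, the squalene synthase, had a fold of 0.912. *Idi1*, the isopentenyl diphosphate isomerase, lay between 2.89 and 6.88 CPM in the 8 samples and was not tested.

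In the second stage, from squalene to cholesterol, 5 of 10 genes had positive and 5 negative log2 fold changes, between -0.34 and 0.28. *Sqle* (chromosome 15, 59315077 to 59331192), the epoxidase that opens this stage, measured 13.8, 10.4, 52.0 and 38.9 CPM in control 1 to 4. In DT 1 to 4 *Sqle* measured 21.1, 30.5, 28.4 and 52.6 CPM, and the groups overlapped. Its log2 fold change was 0.26 (SE 0.30, edgeR adjusted p = 0.669). *Nsdhl* (chromosome X, 72918557 to 72958514), a dehydrogenase that helps to strip methyl groups from the sterol, stood at 11.6, 8.92, 22.8 and 22.3 CPM in control and at 10.1, 15.7, 32.3 and 21.0 CPM in DT. The groups overlapped, with the 4 lowest values of *Nsdhl* all in replicates 1 and 2.

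*Ebp* (chromosome X, 8185329 to 8193512), the sterol isomerase, read 76.9, 38.6, 89.3 and 101.6 CPM in control 1 to 4 and 67.5, 83.1, 104.5 and 115.7 CPM in DT 1 to 4. Control 2, the shallowest library, held its lowest value. The log2 fold change was 0.27 for *Ebp* (SE 0.20) and 0.28 for *Nsdhl* (SE 0.23), with edgeR adjusted p-values of 0.492 and 0.529. *Dhcr7* (chromosome 7, 143823145 to 143848410), the reductase of the last step, had a negative value. It measured 26.9, 20.8, 39.7 and 27.2 CPM in control and 17.7, 27.0, 17.3 and 30.3 CPM in DT, again overlapping, with a log2 fold change of -0.34 (SE 0.25, edgeR adjusted p = 0.485). The other members of this stage, the cyclase *Lss*, the demethylase *Cyp51*, the reductase *Tm7sf2*, the methyl-group oxidase *Msmo1*, the ketoreductase *Hsd17b7* and the desaturase *Sc5d*, had folds between 0.843 for *Lss* and 1.10 for *Tm7sf2*.

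Among the genes of sterol sensing and transport, 4 of 5 had positive log2 fold changes. *Srebf1* (chromosome 11, 60199089 to 60222581) and *Srebf2* (chromosome 15, 82147181 to 82205379) encode the SREBPs. *Srebf2*, whose product mainly drives the sterol genes, measured 27.6, 22.3, 21.4 and 23.7 CPM in control 1 to 4 and 29.5, 24.6, 26.8 and 26.1 CPM in DT 1 to 4. Its fold was 1.12 (95% interval 0.855 to 1.47), the groups overlapping by control 1 alone. *Srebf1* measured 50.1, 28.2, 44.4 and 45.2 CPM in control. In DT it measured 41.3, 30.0, 94.0 and 42.5 CPM, so that DT 3 alone lay above the controls. The log2 fold change of *Srebf1* was 0.27 (SE 0.29), and without DT 3 it was -0.13. *Scap* (chromosome 9, 110333288 to 110384950), the escort protein, stood at 12.3, 19.3, 28.7 and 35.4 CPM in control and at 26.2, 24.1, 36.2 and 28.6 CPM in DT, with a log2 fold change of 0.28 (SE 0.22, edgeR adjusted p = 0.507). *Insig1*, the sterol sensor that retains SCAP, averaged 44.3 ± 10.2 CPM in control and 50.8 ± 22.6 in DT (SD, n = 4). *Stard4* (chromosome 18, 33199355 to 33213862), a carrier of cholesterol between membranes, averaged 160.0 ± 17.0 CPM in control and 149.7 ± 32.8 in DT (SD, n = 4). Its fold of 0.920 had a 95% interval of 0.728 to 1.16.

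Fatty acid synthesis held both the highest and the lowest log2 fold change among the members, neither past the threshold. *Acly* (chromosome 11, 100476353 to 100528000), which makes cytosolic acetyl-CoA from citrate, measured 13.8, 11.9, 31.7 and 31.6 CPM in control 1 to 4. In DT 1 to 4 it measured 21.9, 32.9, 31.0 and 39.5 CPM. Each DT sample of batch a lay above both batch a controls, while batch b overlapped. The log2 fold change of *Acly* was 0.50 (SE 0.24, unadjusted edgeR p = 0.0595, edgeR adjusted p = 0.304). *Scd2* (chromosome 19, 44293674 to 44306864), a desaturase that makes monounsaturated fatty acids, stood at 39.2, 16.3, 19.4 and 16.1 CPM in control and at 28.7, 15.2, 3.94 and 18.1 CPM in DT. Control 1 was the highest and DT 3 the lowest sample, and the groups overlapped. Its log2 fold change was -0.63 (SE 0.41, edgeR adjusted p = 0.432). *Fasn*, *Acaca* and *Elovl6*, which build and elongate the chain, had folds of 1.11, 1.11 and 1.06.

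**Figure D2:**
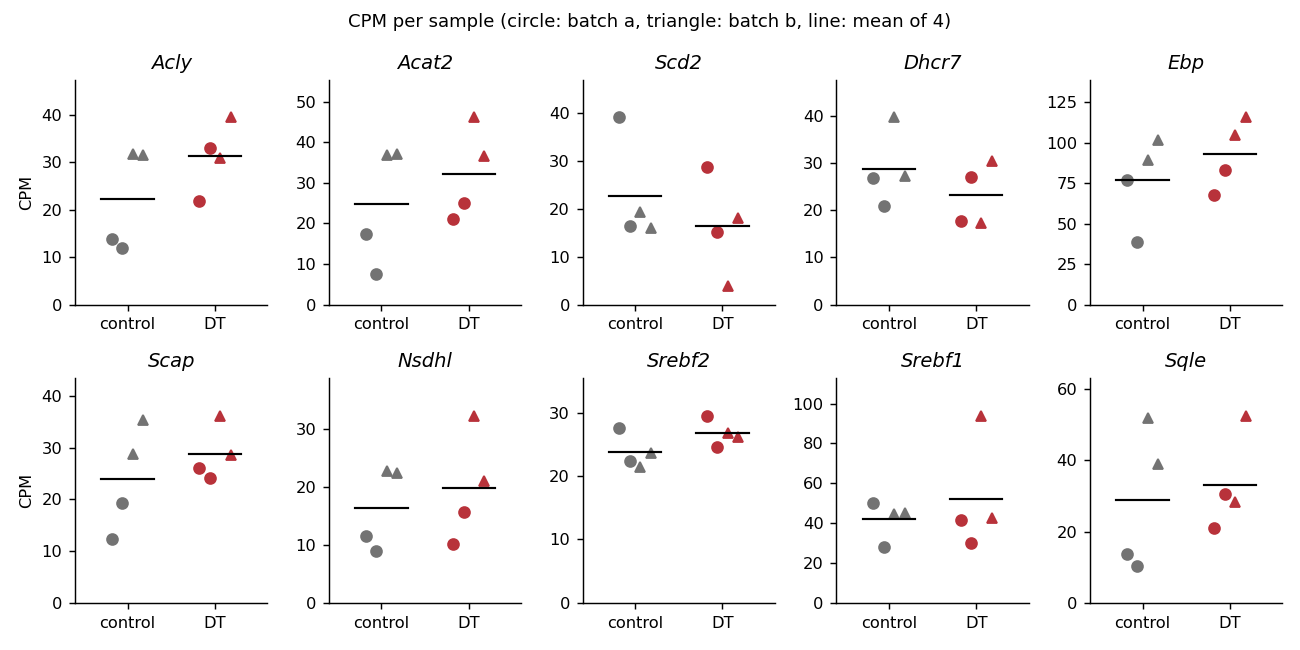
CPM (vertical axis, from 0) in each of the 4 control and 4 DT samples for the 10 members with the smallest p-values, with batch a as circles, batch b as triangles and the mean of 4 as a line. The groups overlap in every panel, and for *Acly*, *Acat2*, *Dhcr7*, *Ebp*, *Scap*, *Nsdhl* and *Sqle* both batch a controls lie below both batch b controls.

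Between the batches, some members did pass the threshold. In the same fit, 8 of 26 members were higher in batch b than in batch a at an edgeR adjusted p under 0.05, and 0 were lower. Of all genes, 21.1% were higher and 20.9% lower. The median log2 difference of batch b over batch a was 0.52 for the members and 0.03 for all genes, with 22 of 26 members positive. The 8 were *Sqle* (1.14, SE 0.31), *Acat2* (1.10, SE 0.24), *Fdft1* (1.08, SE 0.29), *Nsdhl* (1.05, SE 0.24), *Insig1* (0.84, SE 0.23), *Acly* (0.72, SE 0.24), *Scap* (0.69, SE 0.23) and *Ebp* (0.61, SE 0.20), with adjusted p-values from 0.00443 to 0.0323. *Stard4* stood at -0.40 (SE 0.16, edgeR adjusted p = 0.0575). Batch b was also the more deeply sequenced, and library depth and batch cannot be told apart.

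The DT values were therefore also taken within each batch, with 2 samples against 2. Of 25 members tested in both, 8 had positive values in both, 2 negative values in both and 13 were positive in batch a and negative in batch b. The median was 0.23 in batch a and -0.14 in batch b. An edgeR adjusted p under 0.05 was reached by 0 members in either batch, and by 0% of all genes in batch a and 0.0585% in batch b. An unadjusted one was reached by 2 of 25 members in batch a, *Acly* (1.10) and *Sqle* (1.07), both higher in DT, where 4.86% of all genes were. For the difference itself, batch b minus batch a in an interaction term, 22 of 26 members were negative with a median of -0.40, beside -0.06 for all genes. Only *Sqle* among the members had an unadjusted p under 0.05 (-1.25, SE 0.54, unadjusted edgeR p = 0.0408), against 1.69% of all genes in that direction, and 0 genes passed the adjusted threshold. *Scd2* and *Dhcr7* were the members with negative values in both batches.

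**Figure D3:**
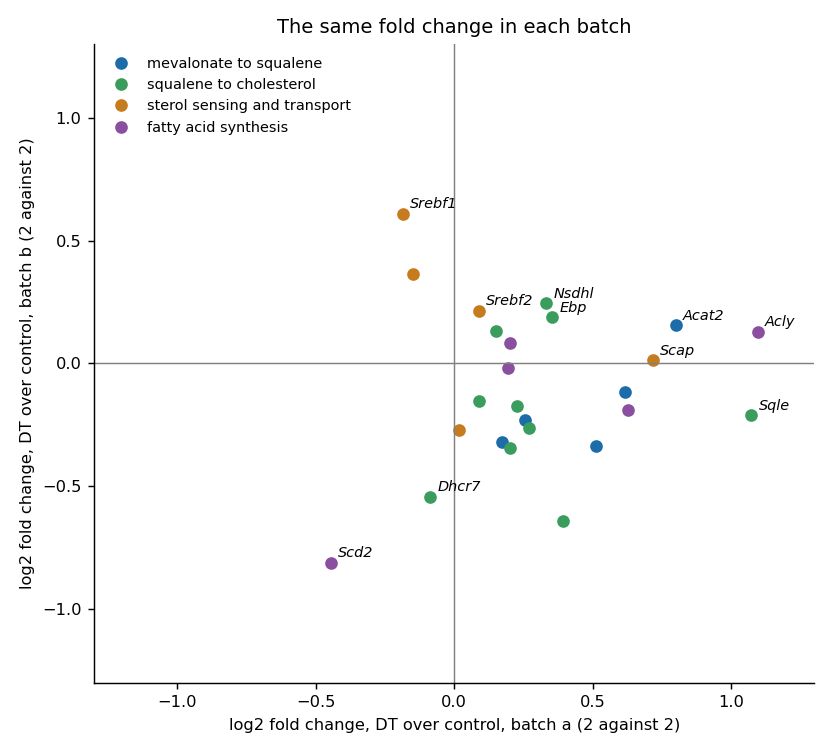
Log2 fold change of DT over control in batch a (horizontal axis) against batch b (vertical axis), 2 samples per group in each, for the 25 members tested in both, coloured by role, with the 10 members of smallest p named. The lower right part, positive in batch a and negative in batch b, holds 13 members.

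Beyond the members, 20 other SREBP targets and parts of the SREBP machinery were listed, of which 16 were tested. In DT 8 were positive and 8 negative, and 0 passed the adjusted threshold. *Me1*, the malic enzyme that supplies NADPH, had the largest value at 1.56 (SE 0.45, unadjusted edgeR p = 0.00611, edgeR adjusted p = 0.216), from 20.3, 26.8, 17.8 and 12.3 CPM in control 1 to 4 and 81.0, 30.5, 81.1 and 21.5 CPM in DT 1 to 4. DT 1 and DT 3 were high and DT 4 lay within the control range. *Tmem97*, a sterol-responsive membrane protein, had 0.83 (SE 0.27, edgeR adjusted p = 0.223).

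Of 14 genes of sterol export, uptake and esterification 11 were tested, 4 positive and 7 negative, again with 0 past the adjusted threshold. The 2 sterol O-acyltransferases, which esterify cholesterol, were the only ones of 27 tested genes in both lists without overlap between the groups, 1 below and 1 above, beside the 1.87% and 1.21% of all genes given before. *Soat2*, the enterocyte form, measured 137.9, 138.2, 140.9 and 109.2 CPM in control 1 to 4 and 97.9, 98.8, 78.0 and 65.6 CPM in DT 1 to 4, every DT sample below every control. Its log2 fold change was -0.65 (SE 0.16, edgeR adjusted p = 0.152). *Soat1*, the form found in most tissues, lay at 25.8 to 43.8 CPM in control and at 45.4 to 57.4 in DT, every DT sample above, with a log2 fold change of 0.55 (SE 0.20, edgeR adjusted p = 0.232). *Npc1l1*, the cholesterol uptake protein of the brush border, had -0.65 (SE 0.26, edgeR adjusted p = 0.248).

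In single epithelial cells the members were measured along the villus rather than after ablation. UMIs were summed per mouse and class, and 4 mice (A, E, G and H) had at least 5 cells of both classes, with 548 tip-gene-0 and 235 tip-gene-high cells. The other 4 mice added no test. Sequencing was shallow: the 27 members in the table had between 2 and 174 UMIs in both classes together, 8 of them fewer than 20. Median UMIs per cell were 2136 in all 881 tip-gene-0 and 1711.5 in all 242 tip-gene-high cells, but the direction differed by mouse. The 2 medians were 2800 and 1663 in mouse A and 2062 and 1569 in G. They were 3641 and 4181 in mouse E and 1269 and 2518.5 in H. All 384 well barcodes recurred, on 24 to 34 plates each, as designed wells do, and 0 kept cells had identical counts. Some gates were sorted to hold pairs of an epithelial and a PDGFRa+ cell, and they gave 121 of the 242 tip-gene-high and 249 of the 881 tip-gene-0 cells. A UMI of *Pdgfra* was found in 1 of the 242 and in 4 of the 881 cells. Single-cell levels are CPM of the summed UMIs, without TMM scaling.

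The split separated the classes along the villus by genes it did not use. Of 7 villus bottom markers, antimicrobial and inflammasome genes of lower enterocytes, 6 were lower in tip-gene-high cells and 0 higher. Their summed level was 9872 to 34804 CPM in tip-gene-0 and 4560 to 6261 CPM in tip-gene-high cells of the 4 mice. Immune markers summed to 1173 to 2437 CPM and 626 to 1442 CPM, and mesenchymal markers to 32.6 to 287 CPM and 0 to 62.0 CPM. Proliferation markers summed to 234, 199, 71.2 and 75.0 CPM in tip-gene-0 cells of mice A, E, G and H and to 56.2, 0, 12.5 and 15.5 CPM in tip-gene-high cells, lower in each mouse. Paneth markers went from 740 to 33.7 CPM in mouse A, from 107 to 93.9 in E, from 42.7 to 151 in G and from 362 to 357 in H. Goblet markers went from 2837 to 86.2 CPM in mouse A and from 253 to 188 in E. In mouse G they went from 42.7 to 1493 CPM and in H from 312 to 6716. Their part in the members' values was not tested.

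By edgeR's default filter on low counts 1977 genes were tested, and of the members this kept *Elovl6* alone. *Elovl6*, which lengthens palmitate, measured 79.4, 38.3, 79.4 and 75.0 CPM in tip-gene-0 cells of mice A, E, G and H and 30.0, 31.3, 69.0 and 0 CPM in tip-gene-high cells. In these CPM, without TMM scaling, it was lower in tip-gene-high cells in 4 of 4 mice, from 5 to 69 UMIs against 0 to 11. Taken so over the 4 mice, the median ratio of the 1977 genes was 0.772, and 64.5% of them were lower. The fit used TMM factors, in mouse G 1.16 for tip-gene-0 and 0.767 for tip-gene-high cells. In it the log2 difference of *Elovl6* was -0.54 (SE 0.60, edgeR adjusted p = 0.505), which missed the threshold. So 0 members were higher and 0 lower, where 19.3% of genes were higher and 19.8% lower, and at an unadjusted p under 0.05 the shares were 23.1% and 23.7% with again 0 members.

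To reach more members, genes with at least 20 UMIs over all sums were tested, a limit chosen after seeing the data. This gave 7556 genes and 19 members, 7 positive and 12 negative, with a median log2 difference of -0.26 beside -0.21 for all genes. In this fit the spread was in effect estimated over all genes together, and on simulated data 45.0% of genes shifted by 2 on the log2 scale were called. *Stard4* was the 1 member of 19 called lower, where 8.05% of all genes were, and 0 members were called higher, where 5.78% were. *Stard4* reached the limit through its 168 UMIs in tip-gene-0 cells, with 6 in tip-gene-high cells, so the count says nothing about the members as a set. The next smallest p belonged to *Insig1*, which was not called.

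*Stard4*, named here after its values were seen, was the member with the most UMIs. In tip-gene-0 cells it gave 106, 18, 44 and 0 UMIs in mice A, E, G and H, or 122, 138, 89.6 and 0 CPM. In tip-gene-high cells it gave 1, 0, 4 and 1 UMIs, or 3.75, 0, 25.1 and 15.5 CPM. It was lower in tip-gene-high cells in mice A, E and G and not in mouse H, whose tip-gene-0 cells also had the lowest villus bottom level and whose count of 0 allows up to 37.5 CPM.

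The ratio of tip-gene-high to tip-gene-0 level was 0.0307 in mouse A (95% exact interval 0.000771 to 0.175) and 0.280 in mouse G (0.0731 to 0.770). In mouse E, with 18 UMIs in tip-gene-0 and 0 in tip-gene-high cells, the exact interval ran from 0 to 0.929. With the 0 set at a floor of 3 UMIs in that sum, the tip-gene-0 level lay 1.47-fold above it. Over the 4 mice together the levels were 106.9 CPM in tip-gene-0 cells, 87.2 in cells with 1 or 2 tip-gene UMIs and 11.5 in tip-gene-high cells, a ratio of 0.107 (0.0388 to 0.239). These intervals cover counting error only. A UMI of *Stard4* was found in 18.6% of all 881 tip-gene-0 cells and in 2.89% of all 242 tip-gene-high cells. In 37 *Ptprc*+ cells without *Epcam*, with a median of 964 UMIs, the share was 5.41%. Their level was 77.4 CPM, beside 13.0 CPM in all 242 tip-gene-high cells. So few and shallow immune cells cannot set a background level.

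The log2 difference of *Stard4* was -2.51 (SE 0.75, edgeR adjusted p = 0.00983). It was -2.45 with DESeq2 at an adjusted p of 0.0691, and without mouse A it was -1.51 with an edgeR adjusted p of 0.456. The call was also lost without mouse G, where the value was -3.41 (edgeR adjusted p = 0.0806), without the doublet gates, where it was -2.07 (edgeR adjusted p = 0.169), and with the split at 2 or more tip-gene UMIs, where it was -1.50 (edgeR adjusted p = 0.0598). Over the 13 alternatives run the value was negative in each.

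*Insig1* was the other member that stood apart, in the opposite direction and on few molecules. It gave 7, 0, 4 and 1 UMIs in tip-gene-0 cells and 7, 2, 5 and 1 in tip-gene-high cells of mice A, E, G and H. As levels that was 8.05, 0, 8.14 and 12.5 CPM against 26.2, 62.6, 31.4 and 15.5 CPM, higher in tip-gene-high cells in 4 of 4 mice. In mouse H this rested on 1 UMI in each class, with an exact interval of the ratio from 0.0158 to 97.4. Together the mice had 7.64 CPM in tip-gene-0, 26.5 in intermediate and 28.7 in tip-gene-high cells, a ratio of 3.76 with an exact interval of 1.64 to 8.79. The log2 difference was 2.32 (SE 0.90, edgeR adjusted p = 0.0629), which missed the threshold.

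**Figure D4:**
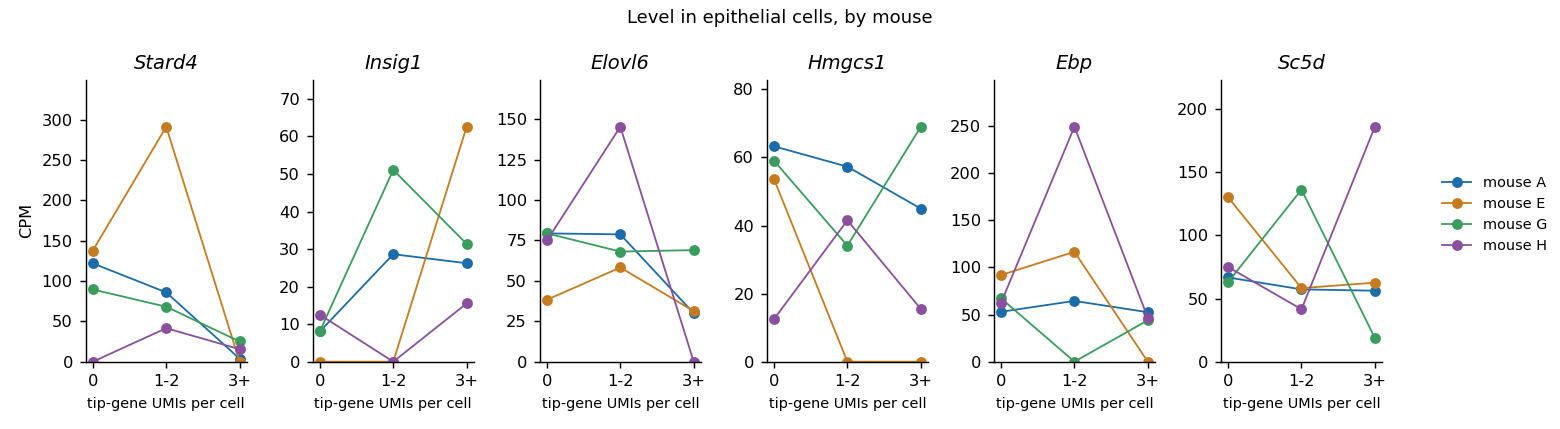
CPM (vertical axis, from 0) of 6 members in epithelial cells with 0, with 1 or 2 and with 3 or more summed UMIs of *Ada*, *Nt5e* and *Slc28a2*, 1 line per mouse. *Stard4* ends at 0 to 25.1 CPM in tip-gene-high cells of the 4 mice and *Insig1* at 15.5 to 62.6, and the middle class of mouse E rests on 4 cells.

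Among the other members, *Hmgcs1* (116 UMIs), *Ebp* (120) and *Sc5d* (144) had log2 differences of 0.06 (SE 0.63), -0.22 (SE 0.59) and -0.02 (SE 0.52) in the same fit. *Sqle* and *Mvd* had 21 and 20 UMIs, all of them in tip-gene-0 cells, and *Dhcr7* had 27 of its 28 UMIs there. The UMIs of *Sqle* and *Mvd* came from mice A and G, and mice E and H had 0 in both classes. Summed over all 27 members, the level was 656, 735, 639 and 462 CPM in tip-gene-0 and 315, 250.4, 464 and 449.8 CPM in tip-gene-high cells of mice A, E, G and H. The ratio over the 4 mice was 0.576, and 0.669 without *Stard4*. The median ratio of the 7556 genes with at least 20 UMIs, taken the same way, was 0.683, and 67.9% of them were lower.

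By role, the ratio of summed levels over the 4 mice was 0.515 for the genes up to squalene, 0.687 from squalene to cholesterol, 0.469 for sterol sensing and transport and 0.516 for fatty acid synthesis. The value for sensing and transport turned without *Stard4*, to 1.21 (95% exact interval 0.782 to 1.83), with 82 UMIs in tip-gene-0 and 33 in tip-gene-high cells. The other 4 genes of that group went from 48.3 to 63.7 CPM in mouse A, from 23.0 to 62.6 in E, from 69.2 to 81.6 in G and from 37.5 to 15.5 in H. In these unscaled CPM the genes up to squalene and those of fatty acid synthesis were lower in tip-gene-high cells in 4 of 4 mice. In mouse H this rested on 4 against 2 and on 7 against 2 UMIs. The genes from squalene to cholesterol were lower in mice A, E and G, and mouse H went from 287 to 357 CPM. The 95% exact intervals, 0.338 to 0.762 up to squalene and 0.333 to 0.774 for fatty acid synthesis, held the median of 0.683 over all genes given before. That from squalene to cholesterol, 0.546 to 0.857, held it too. Those of all 27 members (0.492 to 0.672) and of sensing and transport (0.326 to 0.659) lay below it. Without *Stard4* the interval of all members, 0.569 to 0.784, held it and that of sensing and transport lay above. These intervals pool UMIs over mice and cover counting error only.

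**Figure D5:**
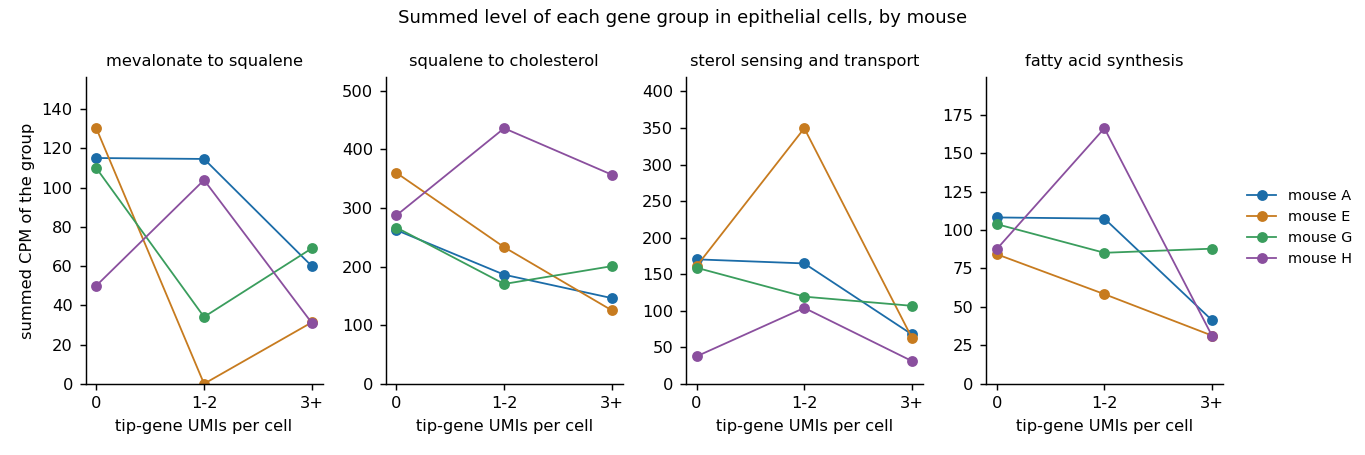
Summed CPM (vertical axis, from 0) of each group of members in epithelial cells with 0, with 1 or 2 and with 3 or more summed UMIs of the tip genes, 1 line per mouse. The tip-gene-high class lies below the tip-gene-0 class in all panels and mice but mouse H from squalene to cholesterol, and for sterol sensing and transport this turns in mice A, E and G without *Stard4*. The CPM are not TMM-scaled, and in such values 67.9% of 7556 genes were lower in tip-gene-high cells, with a median ratio of 0.683.

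In the 2 lists of other sterol genes the default filter kept 8 genes. Of 3 SREBP targets and machinery genes 2 were called higher, and of 5 export, uptake and esterification genes 1. None was called lower, where 19.3% of all 1977 genes were higher and 19.8% lower. *Por*, the reductase that feeds electrons to microsomal enzymes including CYP51 and SQLE, was higher in tip-gene-high cells by 2.96 on the log2 scale (SE 0.41, edgeR adjusted p = 5.84e-06). In mice A, E, G and H it measured 26.5, 46.0, 61.1 and 62.5 CPM in tip-gene-0 cells. The tip-gene-high cells had 229, 219, 326 and 217 CPM. *Por* passed the filter only through its tip-gene-high sums, so the count of genes called higher says nothing about the list as a set. *Pcyt2*, of phosphatidylethanolamine synthesis, was higher by 1.47 (SE 0.30, edgeR adjusted p = 0.000374). *Npc1l1* was higher by 1.27 (SE 0.25, edgeR adjusted p = 0.000243), from 409.5, 949.8, 444 and 612 CPM in tip-gene-0 to 776, 1596, 998 and 931 CPM in tip-gene-high cells of mice A, E, G and H. Each tip-gene-high value of *Npc1l1* lay above the tip-gene-0 value of the same mouse. *Soat2* had a log2 difference of 0.34 (SE 0.33, edgeR adjusted p = 0.437), and *Abcg5* and *Abcg8*, the subunits of the sterol exporter, had 0.24 (SE 0.29) and 0.18 (SE 0.36). Under the 20-UMI limit *Acsl3* was also called higher (5.70, SE 0.81, edgeR adjusted p = 4.9e-10), where 5.78% of 7556 genes were. It measured 4.60, 0, 2.04 and 0 CPM in tip-gene-0 cells of mice A, E, G and H. In tip-gene-high cells it measured 187, 93.9, 69.0 and 62.0 CPM. *Acsl3* reached the limit only through its tip-gene-high cells, so its call says nothing about the list as a set. Negative values that were not called included *Tmem97* (-2.56, SE 1.45), *Abca1* (-2.02, SE 1.14) and *Npc2* (-1.86, SE 0.73).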

How the data were processed

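Per the labels, bulk epithelium was sequenced by mcSCRBseq and single cells by MARS-seq, both of which capture 3' ends. The deposited values are raw UMI counts, which the authors obtained with zUMIs against GRCm38, with bcl2fastq 2.15.0.4 named in the submitters' processing notes, and carry no normalization. Counts of near-identical gene copies may be shared or lost. No background of empty wells was subtracted here.

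Bulk genes above 1e-05 of the UMIs in at least 2 samples were fitted with edgeR 4.0.16 (R 4.3.3; TMM, robust quasi-likelihood, batch as a term, Benjamini-Hochberg over all genes). Batches were taken from the study's supplementary table. Single cells had 400 to 8000 UMIs and at least 250 genes. Their UMIs were summed per mouse and class for mice with at least 5 cells in both classes, and fitted with mouse as a term. Cells of 1 mouse are not replicates, no doublet caller was run, and *Ada*, *Nt5e*, *Slc28a2* and *Epcam* were not tested. A single plate with 352 wells that matched no sample was not used. DESeq2 1.42.0, RLE scaling, other filters and left-out samples or mice were alternatives. The fits were tested on simulated data. The laser-captured samples were not analysed here.

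Same-numbered DT and control samples deviated together (correlations 0.610, 0.415, 0.658 and 0.585), and they were treated as pairs in the blocked fit. The pairing comes from the batches, since within batches the correlations were -0.164 and -0.0594.

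The members and lists were chosen with earlier results of these data known. Values in every sample are given for the 10 members with the smallest p in the DT comparison, since none passed the threshold. Other genes come from 2 lists written by hand. Coordinates are from GENCODE on GRCm38, and promoters from RefSeq. Exact intervals of ratios are conditional on the summed count, at 95%.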

Additional observations from a re-analysis of the deposited data

Results flagged for a closer look

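Among 52 groups of 4 bulk samples (26 members, DT and control), 2 held a sample far from the other 3, and chance gives about 1 in 20. *Acaca* was highest in DT 4, at 24.0 CPM, with the other DT samples at 11.3 to 11.8. *Scd2* was highest in control 1, at 39.2 CPM, with the other controls at 16.1 to 19.4, and without control 1 its log2 fold change was -0.44 in place of -0.63.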

How the results depend on the processing

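In DT against control, 0 members were called higher and 0 lower under every alternative run, and the median log2 fold change ran from -0.14 (batch b only) to 0.23 (batch a only). With the replicate number as a block the median was 0.10, and no call changed with the block. Among the 10 members given in full, *Srebf1* turned negative in batch a alone (-0.19) and without DT 3 (-0.13, in a range of -0.13 to 0.53 over left-out samples), and *Sqle* in batch b alone (-0.21). In tip-gene-high cells, 1 member was lower, *Stard4*, with no filter on low counts (27 members tested), with at least 20 UMIs in all sums (19 members, chosen after seeing the data) and without mouse H (5 members). Leaving out 1 mouse gave 0 to 1 members lower. With 2 to 4 members tested, 0 were called without mouse E, at 2 or more tip-gene UMIs and without *Ptprc*+ cells. Without mouse E and without *Ptprc*+ cells the lowest value was that of *Elovl6* (-0.60 and -0.53), and *Stard4* was not among the members tested. Under the 20-UMI limit *Stard4* was called lower in both (edgeR adjusted p = 0.0152 and 0.00365). The median ran from -1.14 to 0.20 over 1 to 27 members tested. No member could be tested in cells of 200 or more UMIs, without the doublet gates, or without mouse A or G. Under the 20-UMI limit the adjusted p of *Stard4* ran from 0.00102 to 0.456, and missed the threshold with DESeq2, at 2 or more tip-gene UMIs (-1.50, adjusted p 0.0598), without the doublet gates, and without mouse A or G. *Insig1* passed it with no mouse block (0.0413), with cells of 200 or more UMIs (0.0476) and without mouse H (0.0432). Leaving out the NT5E gate, also chosen after seeing the data, changed no call. Without *Stard4*, a choice made after seeing the data, the ratio of summed sensing and transport levels went from 0.469 to 1.21, and that of all members from 0.576 to 0.669. Depth limits the single-cell values, at 2 to 174 UMIs per member.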
